A study of Homo sapiens with 23 samples.

Results

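The 38 genes described here encode the folding and degradation machinery of the endoplasmic reticulum (ER), the sensors of ER stress, and the regulators and targets of the transcription factor ATF4, among them the enzymes and transporters of the amino acid response. They were listed by symbol, and each gene was read through the probe set that the platform annotation assigns to that gene alone and that had the highest mean log2 signal over all arrays. By this rule 37 of the 38 were measured, out of 19775 genes on arrays of 54675 probe sets. The only probe set of SYVN1, the ubiquitin ligase of ER-associated degradation (ERAD), is shared with a microRNA gene, so SYVN1 has no value here. The measured genes comprise 12 chaperones and folding factors, 3 ERAD genes, 3 stress sensors with XBP1, 8 regulators of the ATF4 arm, 6 enzymes, 3 transporters and the receptor gene VLDLR. The 15 chaperone and ERAD genes were set against the 9 enzyme and transporter genes, called the amino acid set below, across 8 groups of cells. Mean signal over the arrays was at least 100 units for 35 of the genes and under 100 units for CHAC1 and VLDLR, so the folds of these 2 genes rest on low signals.

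RNA was measured on 23 Affymetrix U133 Plus 2.0 arrays of MCF10A-ER-Src cells, a non-transformed human mammary epithelial line that carries a fusion of the Src kinase with the part of the estrogen receptor that binds its ligand, so that tamoxifen switches the kinase on. All cells were transfected with an siRNA pool at 25 nM, either against STAT3 (siSTAT3) or non-targeting (siNEG in the labels, siSCM in the text of the study), and 48 h later received 4-hydroxytamoxifen at 1 µM (TAM) or ethanol (EtOH) for 24 h or 4 h. The groups were siSTAT3 TAM 24 h with 2 arrays, and siSTAT3 EtOH 24 h, siNEG TAM 24 h, siNEG EtOH 24 h, siSTAT3 TAM 4 h, siSTAT3 EtOH 4 h, siNEG TAM 4 h and siNEG EtOH 4 h with 3 arrays each. Replicate 1 of siSTAT3 TAM 24 h was not analysed here. All groups come from a single engineered line and 1 siRNA pool per target, and TAM-treated cells without the Src fusion were not analysed here, so drug and kinase cannot be told apart. Cells harvested at 24 h had also grown longer after transfection than those harvested at 4 h, and these times cannot be told apart either.

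The ER folds secreted and membrane proteins, and an excess of unfolded protein there is sensed by IRE1 (gene ERN1), ATF6 and PERK (gene EIF2AK3). IRE1 splices the mRNA of the transcription factor XBP1, ATF6 is cleaved into a transcription factor, and both raise transcription of chaperones such as HSPA5 and of ERAD genes. PERK, like the kinase that senses amino acid shortage, phosphorylates eIF2α, which slows translation in general while favouring that of ATF4, and ATF4 in turn raises transcription of genes for amino acid synthesis and uptake. The arrays report RNA level alone and do not separate spliced from unspliced XBP1 or report the activity of any sensor, and a change in the number of cells cannot be told apart from one in RNA per cell.

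STAT3 itself checked the labels: its mean signal was 331 to 425 units in the 4 siSTAT3 groups, against 4022 to 6119 units in the 4 siNEG groups. The arrays were alike in overall signal, with medians of 73.5 to 85.3 units. Of 7 basal mammary markers 5 were measured, all at 3147 units or more on every array (KRT5, KRT14, EGFR, LAMB3, ITGA6). Of the 6 luminal markers, KRT18 was at 12395 units or more, EPCAM at 5458 to 9726 and KRT8 at 2528 to 11004 units. GATA3 was at 977 to 1863, ESR1 at 129 to 457 and KRT19 at 1.82 to 38.9 units. Fibroblast markers divided, with COL1A2, COL3A1, LUM, PDGFRA and PDGFRB at 72.1 units or less, COL1A1 at 264 to 939 units and DCN at 1463 to 7270 units. Differences below are log2 differences of group means from 1 limma fit to all arrays, with the standard error (SE), and a gene is said to rise or fall, or to be called, where its p, adjusted over all 54675 probe sets of the comparison, was under 0.05. The percentage given beside each count of called members is the share of all 19775 genes called in that direction. Over the 10699 genes with a mean of 100 units or more, as 35 members had, these shares were larger. With 24 h of TAM in siNEG cells 9.69% were higher and 15.8% lower. With time in EtOH it was 13.7% and 9.33% in siSTAT3 and 11.9% and 9.56% in siNEG cells. For siSTAT3 against siNEG cells in TAM it was 16.3% and 10.8% at 24 h and 8.08% and 7.85% at 4 h. In EtOH it was 2.41% and 2.6% at 24 h and 3.27% and 4.16% at 4 h. For the difference of TAM effects at 24 h it was 5.94% and 4.04%.

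Because the members are known as targets of transcription factors that bind short DNA elements, the 250 bases before the start of each gene were searched on both strands for 5 such elements in RefSeq promoters (GRCh38.p14), which were found for 35 of the 38 genes. The ER stress element ERSE, CCAAT and CCACG separated by 9 bases, was present in 0.074% of 35116 promoters and in those of HSPA5, HSP90B1, PDIA6, CALR and CRELD2 among 16 chaperone and ERAD promoters, and in that of XBP1. ERSE-II, ATTGG and CCACG separated by 1 base, was in 0.0513% of promoters and in those of SDF2L1, HYOU1 and HERPUD1. TGATGNAA, the core bound by ATF4 with a C/EBP partner (CARE), was in 3.14% of promoters and in those of HERPUD1, ASNS, CEBPG and CHAC1. TGACGTGG, bound by XBP1 and ATF6 (UPRE), was in 0.612% of promoters and in that of HYOU1. TTCNNNGAA, the core of a STAT site, was in 6.57% of promoters and, among the members, in that of SLC3A2. A match is a description of the sequence and not a binding site. The 150 bases before the start are shown for the genes whose signals carry the results below, first 4 genes that were lower at 24 h than at 4 h (HSPA5 at chr9:125241344-125241493 on the minus strand, HERPUD1 at chr16:56931992-56932141 on the plus strand, XBP1 at chr22:28800570-28800719 on the minus strand and DNAJB9 at chr7:108569724-108569873 on the plus strand), then 3 genes of the amino acid set that changed with TAM (ASNS at chr7:97872409-97872558 on the minus strand, SLC7A5 at chr16:87869508-87869657 on the minus strand and SLC3A2 at chr11:62881549-62881698 on the plus strand). Capitals mark ERSE in HSPA5 and XBP1, ERSE-II in HERPUD1, the CARE core in ASNS and the STAT core in SLC3A2, while the stretches of DNAJB9 and SLC7A5 hold none of the 5 elements and the CARE match of HERPUD1 lies farther upstream than shown. Each sequence ends at the base before the start, and for XBP1, ASNS and SLC3A2 it is 1 of several listed starts.
HSPA5: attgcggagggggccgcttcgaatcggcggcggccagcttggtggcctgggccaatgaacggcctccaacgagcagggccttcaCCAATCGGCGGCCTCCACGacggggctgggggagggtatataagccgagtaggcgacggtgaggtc
HERPUD1: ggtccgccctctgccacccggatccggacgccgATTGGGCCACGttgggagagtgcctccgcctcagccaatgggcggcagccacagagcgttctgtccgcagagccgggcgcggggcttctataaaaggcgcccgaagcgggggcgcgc
XBP1: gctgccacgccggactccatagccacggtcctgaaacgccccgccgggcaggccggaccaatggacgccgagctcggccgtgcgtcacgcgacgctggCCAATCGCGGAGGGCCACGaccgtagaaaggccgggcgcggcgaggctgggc
DNAJB9: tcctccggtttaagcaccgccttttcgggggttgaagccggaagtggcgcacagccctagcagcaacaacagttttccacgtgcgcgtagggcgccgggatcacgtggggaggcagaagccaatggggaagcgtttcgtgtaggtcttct
ASNS: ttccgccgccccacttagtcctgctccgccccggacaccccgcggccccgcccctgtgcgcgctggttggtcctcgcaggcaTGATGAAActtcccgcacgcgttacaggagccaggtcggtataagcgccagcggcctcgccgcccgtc
SLC7A5: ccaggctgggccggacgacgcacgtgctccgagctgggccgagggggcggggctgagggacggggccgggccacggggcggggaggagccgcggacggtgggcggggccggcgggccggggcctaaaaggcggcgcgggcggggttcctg
SLC3A2: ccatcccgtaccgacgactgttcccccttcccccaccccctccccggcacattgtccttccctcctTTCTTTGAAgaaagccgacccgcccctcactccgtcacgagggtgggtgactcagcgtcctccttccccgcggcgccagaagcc

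Across the 8 groups the chaperone and ERAD genes divided by time, the enzymes were lower in siSTAT3 cells, and the transporters were low in siNEG TAM 24 h cells. Relative to the mean of siNEG EtOH 4 h arrays, the mean log2 signal of the 15 chaperone and ERAD genes was -0.38 ± 0.08 in siSTAT3 TAM 24 h cells (SD, n = 2), -0.56 ± 0.01 in siSTAT3 EtOH 24 h cells, -0.40 ± 0.01 in siNEG TAM 24 h cells and -0.44 ± 0.03 in siNEG EtOH 24 h cells (n = 3 each), and it lay between -0.11 and 0.06 in the 4 h groups. Every 24 h array was below every 4 h array for this set. Among the 24 h groups the 6 enzyme genes were highest in siNEG TAM 24 h cells, at 0.36 ± 0.10, next in siNEG EtOH 24 h cells, at 0.18 ± 0.13, and lowest in siSTAT3 TAM 24 h cells, at -0.31 ± 0.02, with siSTAT3 EtOH 24 h cells at -0.10 ± 0.07. The 3 transporter genes did not follow that order: -0.91 ± 0.04 in siNEG TAM 24 h cells was the lowest value of any group, against -0.15 ± 0.03 in siNEG EtOH 24 h cells, -0.30 ± 0.07 in siSTAT3 TAM 24 h cells and -0.09 ± 0.05 in siSTAT3 EtOH 24 h cells. In siNEG TAM 24 h cells the enzyme mean was thus the highest and the transporter mean the lowest of the 8 groups.

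The difference between the 2 sets, chaperone and ERAD minus amino acid, was -0.07 ± 0.04 in siSTAT3 TAM 24 h cells, -0.46 ± 0.07 in siSTAT3 EtOH 24 h cells, -0.34 ± 0.07 in siNEG TAM 24 h cells and -0.51 ± 0.11 in siNEG EtOH 24 h cells. At 4 h it was 0.09 ± 0.07 in siSTAT3 TAM, 0.03 ± 0.05 in siSTAT3 EtOH and 0.10 ± 0.02 in siNEG TAM cells, with siNEG EtOH cells at 0 by construction (SD 0.07). The order from high to low was siNEG TAM 4 h, siSTAT3 TAM 4 h, siSTAT3 EtOH 4 h, siNEG EtOH 4 h, siSTAT3 TAM 24 h, siNEG TAM 24 h, siSTAT3 EtOH 24 h and siNEG EtOH 24 h. Arrays of siSTAT3 TAM 24 h overlapped those of siNEG EtOH 4 h, and those of siSTAT3 EtOH 24 h overlapped those of siNEG EtOH 24 h. Arrays of siNEG TAM 24 h lay above the EtOH 24 h arrays of both siRNAs, but narrowly. Their lowest value was -0.4163, against -0.4172 for the highest siSTAT3 EtOH 24 h array. Those of siNEG TAM 4 h lay above the EtOH 4 h arrays of both siRNAs, with 0.0775 as their lowest and 0.0733 as the highest siSTAT3 EtOH 4 h array. Both margins were small beside the SDs of the groups. These set values are descriptions of genes chosen with results known, and no test was made of them.

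**Figure D1:**
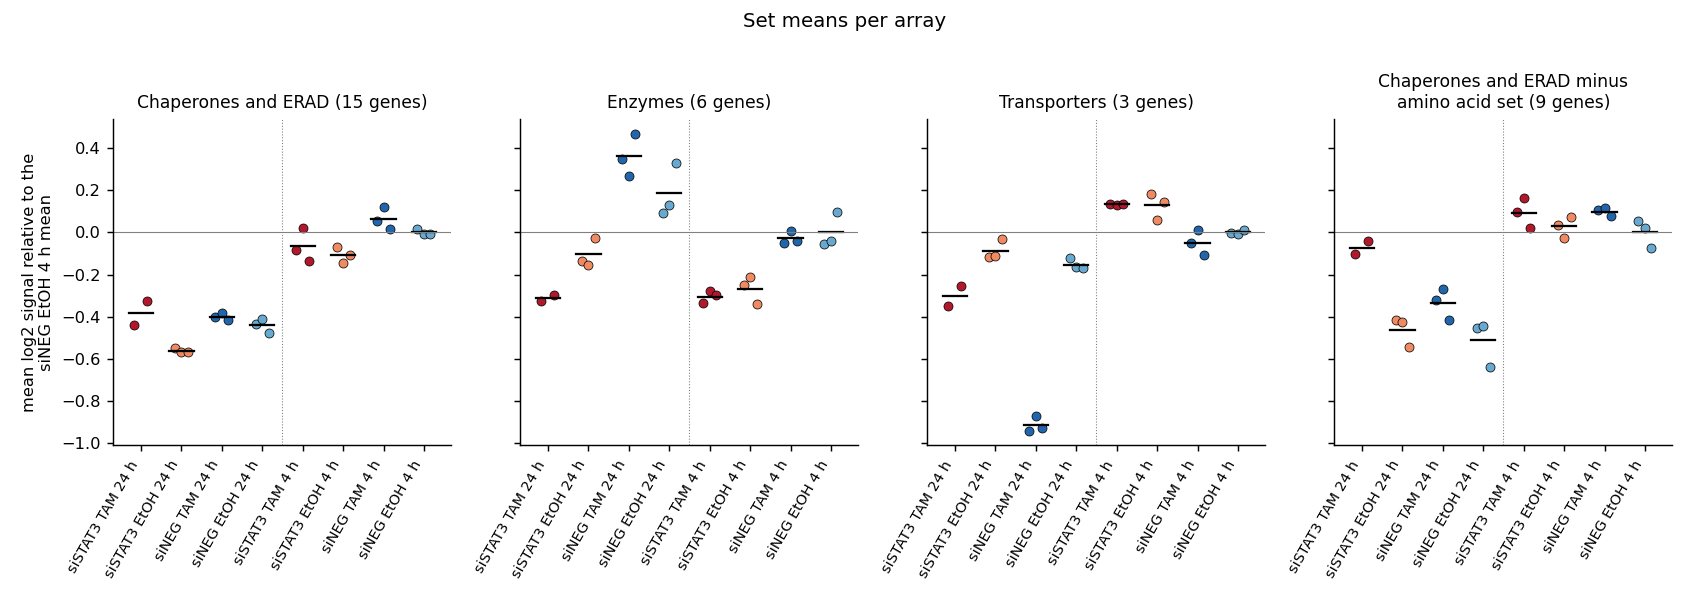
Mean log2 signal of each set relative to the siNEG EtOH 4 h mean (vertical axis) in the 8 groups (horizontal axis); points are arrays and lines are group means. Chaperones and ERAD lie below 0 on every 24 h array, and the 3 transporters reach -0.91 in siNEG TAM 24 h cells.

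In ethanol alone, XBP1 and several chaperone and ERAD genes were lower at 24 h than at 4 h. By main probe set, HERPUD1, DNAJB9 and XBP1 showed the largest falls of all members in both siRNAs. A further probe set of HSPA5, described below, fell more. At 24 h against 4 h, 12 members were lower and 4 higher in siSTAT3 cells (5.28% of all genes were called lower and 8.14% higher), and 10 were lower and 1 higher in siNEG cells (5.52% lower and 6.82% higher). Lower in both siRNAs were 8 genes: HSPA5, DNAJB9, DNAJC3, SDF2L1, MANF, HERPUD1, XBP1 and SLC7A11. The 15 chaperone and ERAD genes had a median of -0.30 in siSTAT3 and -0.34 in siNEG cells, against 0.06 and 0.02 over all genes, and 7 of them were called lower in each siRNA. The 9 amino acid genes had medians of 0.12 and 0.19. Fitted to the EtOH arrays of the siRNA compared alone, 7 members passed in siSTAT3 cells (HSPA5, DNAJB9, DNAJC3, SDF2L1, HERPUD1, XBP1 and SLC7A11) and 3 in siNEG cells (DNAJB9, HERPUD1 and XBP1). Whether the change with time differed between siSTAT3 and siNEG cells was not tested. Fibroblast marker sums also differed with time, at 3143 to 3171 units at 24 h and 2093 to 2368 at 4 h in siSTAT3 EtOH cells. In siNEG EtOH cells they were 5726 to 5965 and 2895 to 3510.3 units. Basal sums were 45052 to 45481 units at 24 h and 50402 to 53675 at 4 h in siSTAT3 EtOH cells, and they overlapped in siNEG EtOH cells. The part of these markers in the results was not tested.

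HSPA5 (BiP), the main Hsp70 chaperone of the ER and a standard reporter of ER stress, averaged 10009 ± 300.4 units at 24 h and 18439 ± 1343 at 4 h in siSTAT3 EtOH cells, and 10669.5 ± 846 and 17368 ± 189.7 in siNEG EtOH cells (SD, n = 3 each). The differences were -0.88 (SE 0.09, adjusted p = 8.32e-06) and -0.71 (SE 0.09, adjusted p = 0.000106). HERPUD1, a membrane protein of the ERAD complex, fell as well: it averaged 2296 ± 36.9 units at 24 h and 6189 ± 241 at 4 h in siSTAT3 cells, a difference of -1.43 (SE 0.09, adjusted p = 2.41e-08), and 2573 ± 106 and 5393 ± 267 in siNEG cells, a difference of -1.07 (SE 0.09, adjusted p = 6.65e-07). Signals of HSPA5 and HERPUD1 at 24 h lay below those at 4 h on every array, TAM arrays included.

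DNAJB9 (ERdj4), an HSPA5 co-chaperone that is also a target of XBP1, had 1071, 1043 and 1015 units at 24 h and 2448, 2455 and 2361 at 4 h in siSTAT3 EtOH cells. In siNEG EtOH cells it had 957, 979 and 1062 units at 24 h and 2215, 2196 and 2112 at 4 h. The times did not overlap, and DNAJB9 fell by 1.22 in siSTAT3 and by 1.12 in siNEG cells (adjusted p = 7.91e-08 and 2.56e-07). XBP1 was at 1491, 1432 and 1344 units at 24 h and 3037, 3149 and 3302 at 4 h in siSTAT3 EtOH cells, a difference of -1.15 (SE 0.09, adjusted p = 5.99e-07). For siNEG EtOH cells its signals were 1351, 1584 and 1516 at 24 h and 3044, 2801 and 2943 at 4 h, a difference of -0.98 (SE 0.09, adjusted p = 4.26e-06). The folds were 2.22 lower in siSTAT3 and 1.98 lower in siNEG cells, with no overlap between the times.

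Among the other folding genes, DNAJC3 (an HSPA5 co-chaperone) differed by -0.53 in siSTAT3 and -0.67 in siNEG cells, SDF2L1 (part of a chaperone complex of the ER) by -0.67 and -0.74, and MANF (a secreted and ER-resident protein induced by ER stress) by -0.36 and -0.57, each lower at 24 h. HYOU1, a large Hsp70-like chaperone, passed in siNEG cells (-0.49, SE 0.11, adjusted p = 0.00786) with -0.26 in siSTAT3 cells (adjusted p = 0.161), and the disulfide isomerase PDIA4 passed in siSTAT3 cells (-0.33, SE 0.09, adjusted p = 0.0307) with -0.23 in siNEG cells (adjusted p = 0.156). HSP90B1 (GRP94), DNAJB11, PDIA6, CALR (calreticulin), CRELD2, SEL1L and EDEM1 passed in neither, with differences from -0.30 to 0.00 in siSTAT3 and from -0.34 to -0.01 in siNEG cells. SEL1L in siNEG cells (-0.34, adjusted p = 0.0510) passed with an intensity-dependent robust prior (0.0146) and a filter on low signal (0.0149). It also passed with quantile normalization (adjusted p = 0.042) and with 16 units added (0.0475). The differences were thus uneven within the set, with PDIA6 near 0 and HERPUD1 and DNAJB9 below -1 in both siRNAs.

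On the ATF4 side the calls went in both directions. SLC7A11, the cystine importer, was lower at 24 h in both siRNAs (-0.69, SE 0.09, adjusted p = 7.53e-05 in siSTAT3 and -0.44, SE 0.09, adjusted p = 0.00484 in siNEG cells), and TRIB3, a pseudokinase that ATF4 induces, was higher in both (0.27 and 0.30). In siSTAT3 cells EIF2AK3 (-0.36), DDIT3 (CHOP, a pro-apoptotic factor of the PERK arm, -0.73) and PPP1R15A (GADD34, which recruits the phosphatase that dephosphorylates eIF2α, -0.59) were lower, and the serine synthesis genes PSAT1 (0.33) and PSPH (0.45) and the receptor gene VLDLR (0.74) higher. CEBPG, the C/EBP partner of ATF4, was lower in siNEG cells (-0.31). Of the 16 calls in siSTAT3 cells 8 held on leaving out any 1 array, and of the 11 in siNEG cells 9. Those that did not hold in siNEG cells were CEBPG and TRIB3, whose adjusted p reached 0.0947 and 0.0843 without siNEG EtOH 4 h replicate 1 and siNEG EtOH 24 h replicate 3, and in siSTAT3 cells PDIA4, MANF, EIF2AK3, DDIT3, TRIB3, PPP1R15A, PSAT1 and PSPH, with adjusted p of 0.0515 to 0.206, the last for EIF2AK3 without siSTAT3 EtOH 24 h replicate 3.

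**Figure D2:**
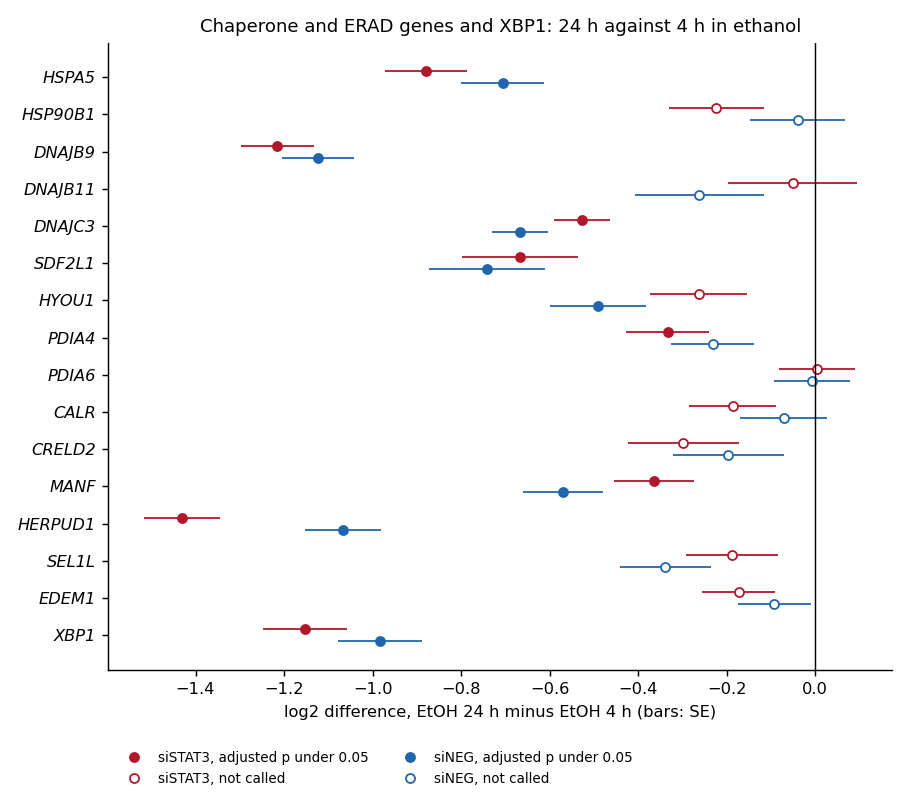
Log2 difference between EtOH 24 h and EtOH 4 h (horizontal axis; bars are SE) for the 15 chaperone and ERAD genes and XBP1, in siSTAT3 cells (red) and siNEG cells (blue); filled points passed an adjusted p of 0.05. Among these main probe sets HERPUD1, DNAJB9 and XBP1 lie farthest below 0 in both, from -1.43 to -0.98.

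After 4 h of TAM, no member passed in siSTAT3 cells (0.531% of all genes were called higher and 0.288% lower) or in siNEG cells (1.67% and 1.58%) by limma, and 5 and 8 of the 37 had an unadjusted p under 0.05. With an intensity-dependent robust prior the counts were 0 and 1. The gene called was TRIB3, at -0.26 in siNEG cells. Members ranged from -0.31 to 1.46 in siSTAT3 cells, the top value being that of CHAC1 on signals of 70.2 units or less, and from -0.35 to 0.40 in siNEG cells. The TAM effect at 4 h did not pass as different between siSTAT3 and siNEG cells for any member by limma, with 1 member at an unadjusted p under 0.05 and 0 by the robust prior (0.192% of all genes were called with a higher and 0.329% with a lower effect in siSTAT3 cells).

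After 24 h of TAM in siNEG cells, which had STAT3, 9 members were higher and 2 lower than in EtOH, out of 37 (6.06% of all genes were called higher and 9.31% lower). The rises were in VLDLR, the sensors ERN1 and ATF6, XBP1, the enzymes MTHFD2 and ASNS, the ERAD and chaperone genes DNAJB9 and EDEM1, and CEBPG, and the falls in SLC7A5 and SLC3A2. The 15 chaperone and ERAD genes had a median of 0.09 against -0.04 over all genes, with 2 of them called, and HSPA5 was at -0.09 (SE 0.09, adjusted p = 0.656). The sensors and XBP1 had a median of 0.55, with 3 of the 4 called. Fitted to the 6 arrays of these groups alone, 4 of the 11 passed: ATF6, SLC7A5, SLC3A2 and VLDLR.

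ERN1, which encodes the kinase and endonuclease IRE1α, had 395 and 333 units in siSTAT3 TAM cells, 374, 351 and 372 in siSTAT3 EtOH cells, 785, 710.1 and 829 in siNEG TAM cells and 448, 481 and 577 in siNEG EtOH cells at 24 h. The siNEG TAM arrays were above all others, and the rise was 0.63 (SE 0.11, adjusted p = 0.000639), 1.55-fold. The further probe sets of ERN1, described below, did not pass with TAM, so this rise rests on the main probe set. At 4 h its signals were 369, 390.2 and 373 units in siSTAT3 TAM cells, 297, 330.5 and 371 in siSTAT3 EtOH cells, 476, 472 and 488 in siNEG TAM cells and 439, 438 and 379 in siNEG EtOH cells. ATF6 had 1858 and 2008 units in siSTAT3 TAM cells, 1569, 1717 and 1727 in siSTAT3 EtOH cells, 2456, 2419 and 2525 in siNEG TAM cells and 1656, 1634 and 1669.5 in siNEG EtOH cells at 24 h, with the siNEG TAM arrays again highest. Its rise was 0.58 (SE 0.08, adjusted p = 6.65e-05), 1.49-fold. At 4 h ATF6 had 1341, 1161 and 1276 units in siSTAT3 TAM cells, 1432, 1472 and 1533 in siSTAT3 EtOH cells, 1492, 1379.9 and 1266 in siNEG TAM cells and 1498, 1471 and 1376 in siNEG EtOH cells, and the effect of TAM at 24 h minus that at 4 h in siNEG cells was 0.65 (SE 0.11, adjusted p = 0.00206).

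XBP1 had 1709 and 1371 units in siSTAT3 TAM cells, 1491, 1432 and 1344 in siSTAT3 EtOH cells, 2109, 2112 and 2128 in siNEG TAM cells and 1351, 1584 and 1516 in siNEG EtOH cells at 24 h. In siNEG cells the TAM arrays were above every EtOH array, a rise of 0.52 (SE 0.09, adjusted p = 0.00123). The 4 h signals of XBP1 in TAM were 3545, 3579 and 3442 units in siSTAT3 cells and 3402, 3217 and 3948 units in siNEG cells, so all 24 h TAM arrays of XBP1 were below the 4 h ones. EIF2AK3, encoding PERK, was the sensor that did not pass, with 695 ± 67.7 units in TAM and 747 ± 24.1 in EtOH (SD, n = 3 each), a difference of -0.11 (SE 0.11, adjusted p = 0.655).

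**Figure D3:**
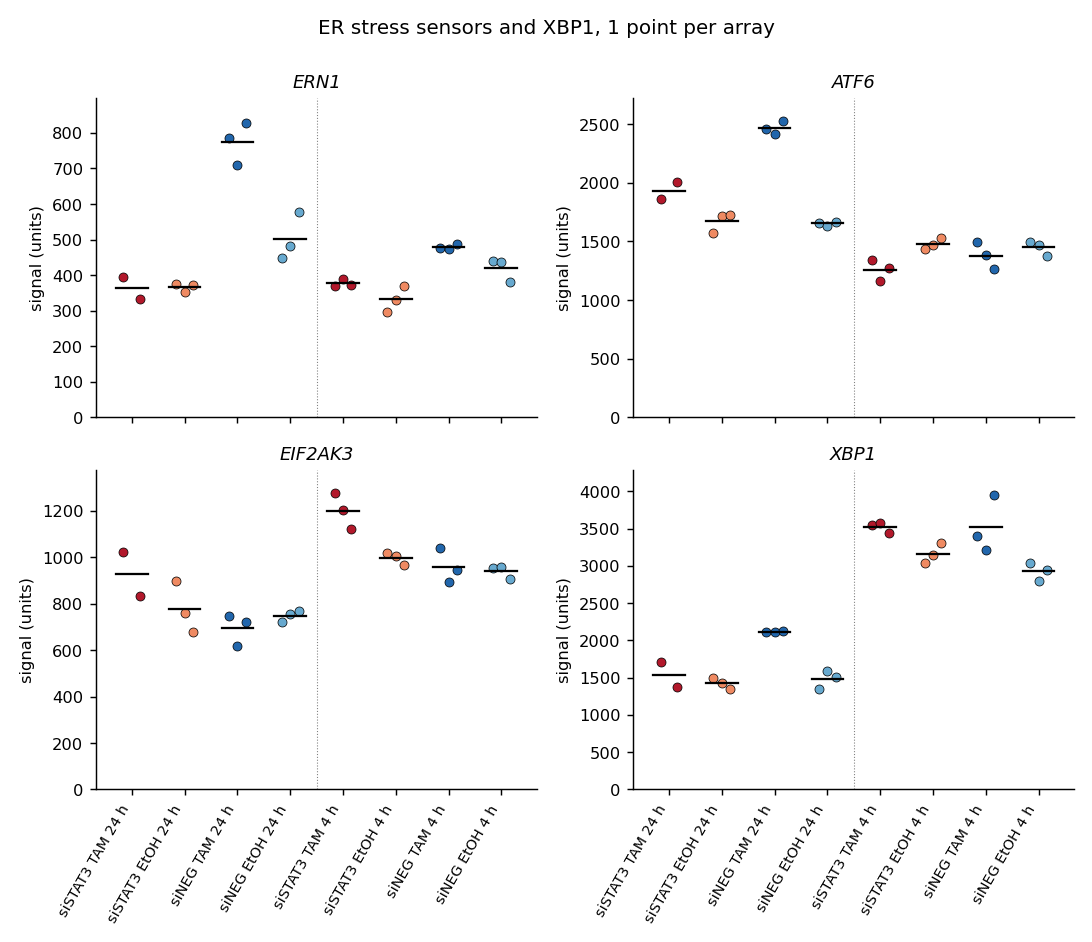
Signal in units (vertical axis) of the 3 sensors and XBP1 in the 8 groups (horizontal axis); points are arrays and lines are group means. ERN1 and ATF6 are highest in siNEG TAM 24 h cells, and XBP1 is lower in all 24 h groups than in all 4 h groups.

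Among chaperone and ERAD genes, DNAJB9 had 1267 and 1462 units in siSTAT3 TAM cells, 1071, 1043 and 1015 in siSTAT3 EtOH cells, 1411, 1308 and 1365 in siNEG TAM cells and 957, 979 and 1062 in siNEG EtOH cells at 24 h, and rose with TAM in siNEG cells by 0.45 (SE 0.08, adjusted p = 0.00119). Its 4 h signals in TAM were 2791, 2557 and 2620.0 units in siSTAT3 and 2457, 2119.8 and 2562 units in siNEG cells, above all 24 h signals. EDEM1, a mannosidase-like protein that marks misfolded glycoproteins for ERAD, had 1209.7 and 1236 units in siSTAT3 TAM cells, 988, 920.5 and 939.5 in siSTAT3 EtOH cells, 1630.4, 1511 and 1846 in siNEG TAM cells and 1301, 1259.7 and 1236 in siNEG EtOH cells at 24 h. It rose by 0.39 (SE 0.08, adjusted p = 0.00389) in siNEG cells, and siSTAT3 EtOH arrays were lowest. At 4 h EDEM1 had 1016, 1106 and 989.7 units in siSTAT3 TAM cells, 1027, 1079 and 1105 in siSTAT3 EtOH cells, 1374, 1316 and 1375 in siNEG TAM cells and 1326, 1466 and 1261 in siNEG EtOH cells, with every siSTAT3 array below every siNEG array. The other 13 genes of the group ranged from -0.37 (DNAJB11) to 0.15 (DNAJC3) with TAM in siNEG cells, with adjusted p of 0.129 or more. DNAJB11 passed with the robust prior (adjusted p = 0.0459).

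In the ATF4 arm, CEBPG had 1028 and 1139 units in siSTAT3 TAM cells, 1192, 1124 and 1053 in siSTAT3 EtOH cells, 1539.9, 1485 and 1395 in siNEG TAM cells and 1209, 1164 and 1186 in siNEG EtOH cells at 24 h and rose in siNEG cells by 0.31 (SE 0.08, adjusted p = 0.0220). At 4 h it had 1357, 1214 and 1325 units in siSTAT3 TAM cells, 1306, 1290.2 and 1439 in siSTAT3 EtOH cells, 1510.0, 1253 and 1398 in siNEG TAM cells and 1505, 1475 and 1422 in siNEG EtOH cells, with no change called. ATF4 itself was at 16253 ± 480.5 units in siNEG TAM cells and 13355 ± 601 in siNEG EtOH cells, a difference of 0.28 (SE 0.10, adjusted p = 0.0828). Its call depended on the processing: ATF4 passed with the robust prior (adjusted p = 0.0172), quantile normalization (0.0208) and a filter on low signal (0.0274). The remaining regulators did not pass in the main fit: ATF5 -0.30, DDIT3 0.21, TRIB3 0.02, PPP1R15A 0.44, SESN2 0.10 and CHAC1 1.40, the last on siNEG 24 h signals of 37.0 to 175 units and with an adjusted p of 0.274. PPP1R15A passed with quantile normalization (adjusted p = 0.0481) and with the filter (0.0238), and ATF5 with the filter (0.0347). CEBPG lost its call without siNEG EtOH 24 h replicate 2 or 3 or siNEG TAM 24 h replicate 1 or 2, with adjusted p of 0.0566 to 0.0900.

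Of the enzymes, MTHFD2, a mitochondrial enzyme of the folate pathway, had 5685 and 7332 units in siSTAT3 TAM cells, 6094, 5830.0 and 5302 in siSTAT3 EtOH cells, 10267, 10693 and 11101 in siNEG TAM cells and 7195, 7262 and 7778 in siNEG EtOH cells at 24 h. It rose by 0.53 (SE 0.10, adjusted p = 0.00196) in siNEG cells, where the TAM arrays stood above all other 24 h arrays. At 4 h MTHFD2 had 7474, 8091 and 6888 units in siSTAT3 TAM cells, 7468, 7302 and 6678 in siSTAT3 EtOH cells, 9304, 10866 and 9753 in siNEG TAM cells and 8021, 9169.8 and 8843 in siNEG EtOH cells. ASNS, asparagine synthetase, had 1290.0 and 1357 units in siSTAT3 TAM cells, 1397, 1398 and 1760.3 in siSTAT3 EtOH cells, 2567, 2278 and 2912 in siNEG TAM cells and 1568, 1755 and 2192 in siNEG EtOH cells at 24 h. At 4 h it had 1355, 1592 and 1409 units in siSTAT3 TAM cells, 1282, 1417 and 1425 in siSTAT3 EtOH cells, 1547, 1607 and 1652 in siNEG TAM cells and 1406, 1357 and 1782 in siNEG EtOH cells. The siNEG TAM 24 h arrays were above every other array, and the rise of 0.50 (SE 0.14, adjusted p = 0.0252) was lost on leaving out siNEG EtOH 24 h replicate 1 or 2 or siNEG TAM 24 h replicate 1 or 3, with adjusted p of 0.0652 to 0.131. PSAT1, PHGDH and PSPH of serine synthesis and SHMT2, which moves a carbon of serine to folate in mitochondria, differed by 0.15, 0.17, -0.31 and 0.02, with adjusted p of 0.106 or more. PSPH passed with the robust prior (adjusted p = 0.0419) and with the filter on low signal (0.0391).

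**Figure D4:**
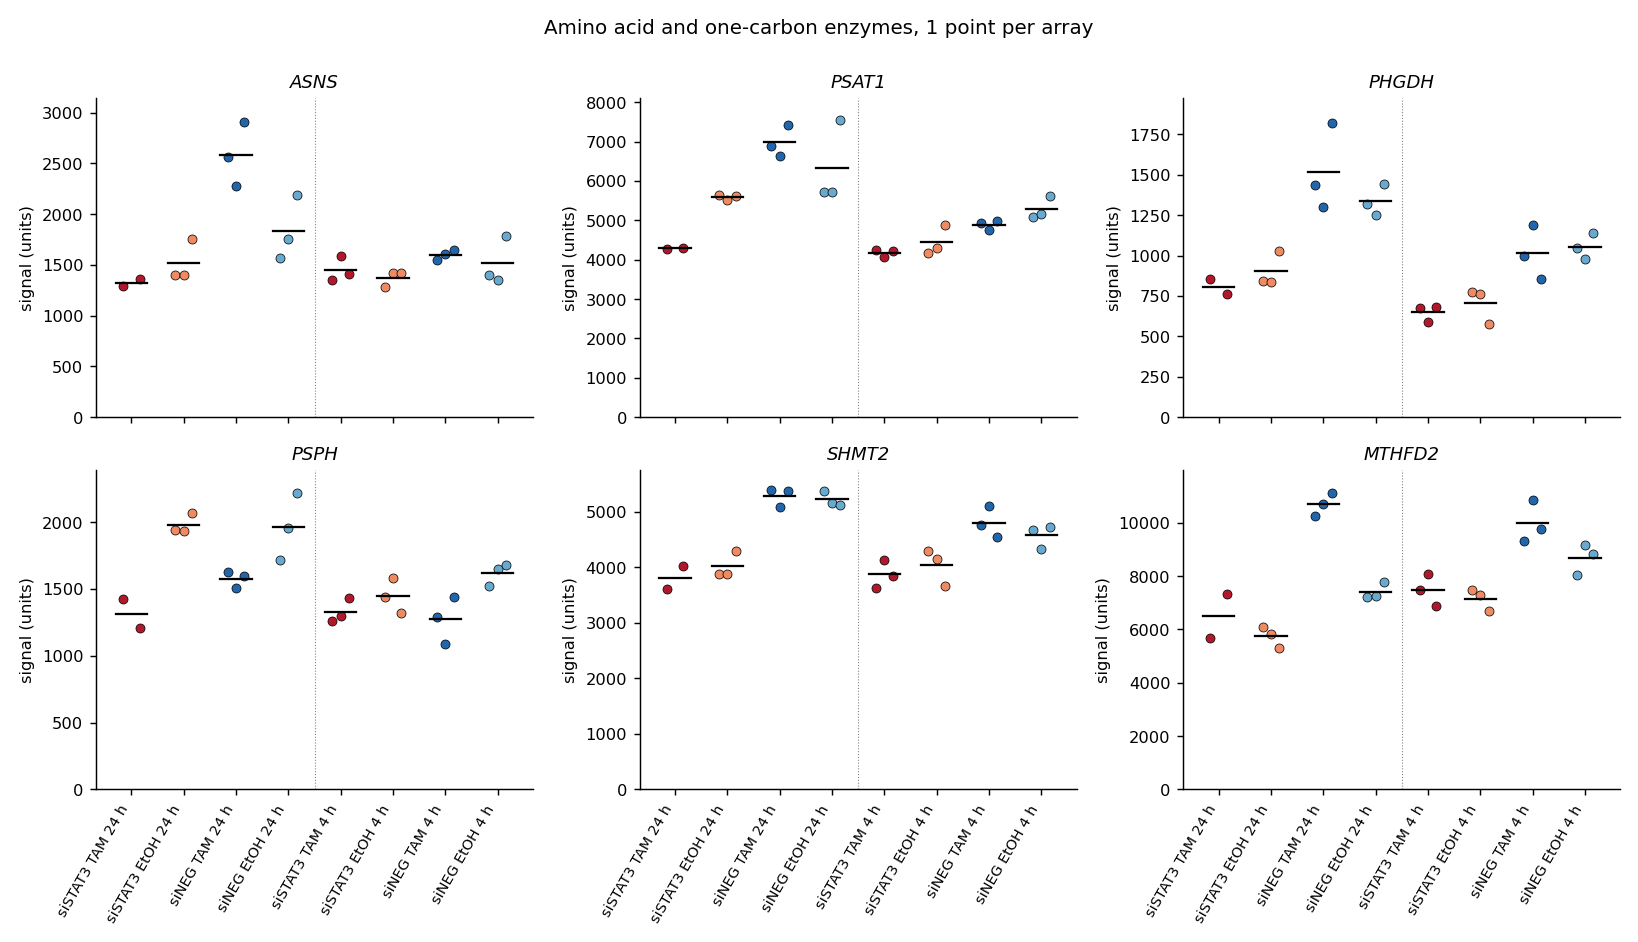
Signal in units (vertical axis) of the 6 enzymes in the 8 groups (horizontal axis); points are arrays and lines are group means. ASNS and MTHFD2 stand highest in siNEG TAM 24 h cells, and all 6 have lower means in siSTAT3 TAM 24 h than in siNEG TAM 24 h cells.

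Among the members, the transporters SLC7A5 and SLC3A2 were the 2 that fell with 24 h of TAM in siNEG cells. SLC7A5 (LAT1), which imports leucine and other large neutral amino acids, had 13093 and 14655 units in siSTAT3 TAM cells, 13966, 14486 and 14622 in siSTAT3 EtOH cells, 6151, 6234 and 5653 in siNEG TAM cells and 13795, 14669.9 and 13321 in siNEG EtOH cells at 24 h. The 3 siNEG TAM arrays were low, and the other 24 h arrays were each at 13093 units or more. In siNEG cells SLC7A5 fell by 1.21 with TAM (SE 0.08, adjusted p = 1.53e-08), 2.32-fold. At 4 h its signals were 15148, 16595 and 13913 units in siSTAT3 TAM cells, 15589, 14652 and 14978 in siSTAT3 EtOH cells, 13437, 13382 and 12487 in siNEG TAM cells and 15462, 14138 and 14347 in siNEG EtOH cells.

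SLC3A2 (CD98 heavy chain, 4F2hc) pairs with SLC7A5 or with SLC7A11 and brings them to the cell surface, and it had 3506 and 3794 units in siSTAT3 TAM cells, 4424, 4236 and 4411 in siSTAT3 EtOH cells, 1695, 1764 and 1780.4 in siNEG TAM cells and 3804, 3898 and 3663 in siNEG EtOH cells at 24 h. The siNEG TAM arrays were again the lowest and did not overlap any other group. SLC3A2 fell by 1.12 with TAM (SE 0.08, adjusted p = 2.92e-08), 2.17-fold. At 4 h it had 3905, 3728 and 3879 units in siSTAT3 TAM cells, 4292, 3698 and 4084 in siSTAT3 EtOH cells, 3195, 3344 and 3113 in siNEG TAM cells and 3544, 3417 and 4066 in siNEG EtOH cells. SLC7A11, the other partner, did not pass: it averaged 1618 ± 74.5 units in siNEG TAM and 1559 ± 144 in siNEG EtOH cells, a difference of 0.06 (SE 0.09, adjusted p = 0.803). The effect of TAM at 24 h minus that at 4 h in siNEG cells was -1.05 (SE 0.11, adjusted p = 2.34e-05) for SLC7A5 and -0.93 (SE 0.11, adjusted p = 6.58e-05) for SLC3A2, and 2 members passed that comparison in each direction (2.97% of all genes higher and 2.62% lower).

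VLDLR, the very low density lipoprotein receptor, a target of the PERK and ATF4 arm in mouse liver, had 100.1 and 73.7 units in siSTAT3 TAM cells, 57.1, 60.8 and 54.9 in siSTAT3 EtOH cells, 264, 272 and 269 in siNEG TAM cells and 57.5, 45.1 and 50.4 in siNEG EtOH cells at 24 h. The siNEG TAM arrays were at 264 units or more and every other array at 100.1 units or less, and the rise was 2.40 (SE 0.17, adjusted p = 2.47e-08), 5.29-fold over EtOH signals of 57.5 units or less. At 4 h VLDLR had 37.5, 33.0 and 36.6 units in siSTAT3 TAM cells, 40.3, 31.5 and 32.0 in siSTAT3 EtOH cells, 33.6, 35.6 and 45.6 in siNEG TAM cells and 51.4, 44.3 and 32.7 in siNEG EtOH cells, and TAM at 24 h minus TAM at 4 h in siNEG cells was 2.55 (SE 0.23, adjusted p = 3.81e-06). Summed signals of other cell markers also differed in these cells: the 6 luminal markers summed to 22078 to 24377 units per array in siNEG TAM 24 h and 29175 to 32674 in siNEG EtOH 24 h cells, and the 7 fibroblast markers, chiefly DCN, to 6836 to 7896 and 5726 to 5965 units. Their part in the changes of members was not tested.

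**Figure D5:**
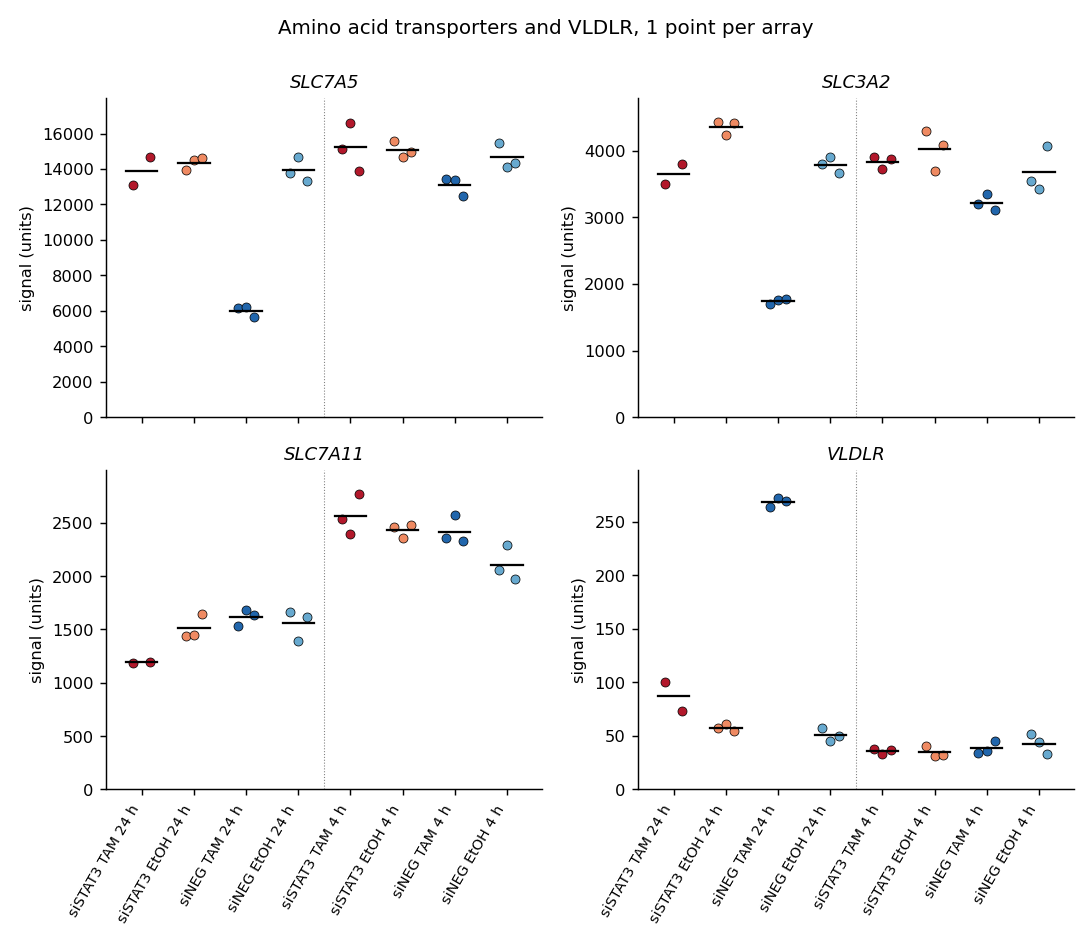
Signal in units (vertical axis) of the 3 transporters and VLDLR in the 8 groups (horizontal axis); points are arrays and lines are group means. In siNEG TAM 24 h cells SLC7A5 and SLC3A2 are low and VLDLR is high on all 3 arrays.

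In siSTAT3 cells 4 members passed after 24 h of TAM: DNAJB9, HERPUD1 and PPP1R15A were higher and PSPH lower (2% of all genes were called higher and 0.748% lower). SLC7A5 differed by -0.05 (SE 0.09, adjusted p = 0.903) and SLC3A2 by -0.26 (SE 0.09, adjusted p = 0.195). PPP1R15A averaged 360.4 ± 51.7 units in siSTAT3 TAM cells (SD, n = 2) and 199.8 ± 36.3 in siSTAT3 EtOH cells (n = 3), a rise of 0.86 (SE 0.16, adjusted p = 0.00972), DNAJB9 rose by 0.38 (SE 0.09, adjusted p = 0.0404), HERPUD1 by 0.40 (SE 0.10, adjusted p = 0.0412), and PSPH fell by 0.60 (adjusted p = 0.0226). All 15 chaperone and ERAD genes had a difference above 0, with a median of 0.18 against -0.01 over all genes, and 8 of the 9 amino acid genes had one below 0, with a median of -0.19. Each of the 4 calls was lost on leaving out some arrays, 17 different single arrays for DNAJB9, 17 for HERPUD1, 4 for PSPH and 2 for PPP1R15A. Without siSTAT3 TAM 24 h replicate 3, which left 1 array in that group, whose spread was then taken from the other groups, the adjusted p was 0.460 for DNAJB9, 0.536 for HERPUD1, 0.192 for PPP1R15A and 0.313 for PSPH. By limma on the arrays of these 2 groups alone 0 members passed. The ratio of the 3' to the 5' probe set of ACTB, a measure of RNA integrity, was lower with TAM. It was 1.21 on each array, against 1.30 on each array of siSTAT3 EtOH 24 h cells. Basal marker sums were 48705 to 53608 units with TAM and 45052 to 45481 in EtOH, and fibroblast sums 2949.5 to 2957 and 3143 to 3171 units. Neither range overlapped, while luminal, immune and endothelial sums did. The part of these differences in the results was not tested.

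The effect of TAM at 24 h differed between siSTAT3 and siNEG cells for 4 members: it was higher in siSTAT3 cells for SLC7A5 and SLC3A2 and lower for VLDLR and ERN1 (3.42% of all genes were called higher and 2.49% lower). The difference was 1.16 (SE 0.12, adjusted p = 1.24e-05) for SLC7A5 and 0.86 (SE 0.12, adjusted p = 0.000214) for SLC3A2, from TAM effects in siSTAT3 cells of -0.05 and -0.26, against -1.21 and -1.12 in siNEG cells. For VLDLR it was -1.82 (SE 0.25, adjusted p = 0.000212) and for ERN1 -0.64 (SE 0.16, adjusted p = 0.0314). The enzymes all had a difference below 0, from -0.69 (ASNS, adjusted p = 0.0829) and -0.53 (PSAT1, adjusted p = 0.0526) to -0.09 (SHMT2), and their count of calls by limma was 0. Of them, 3 had an unadjusted p under 0.05, and ASNS and PSAT1 passed with the robust prior (adjusted p = 0.0209 and 0.00747) and with a filter on low signal (0.0269 and 0.0135). PSAT1 passed with quantile normalization (0.0458) and with 16 units added (0.0479) as well. With a replicate block both ASNS and PSAT1 passed (adjusted p = 0.0197 and 0.0242). For XBP1 and ATF6 the difference was -0.41 and -0.37 (adjusted p = 0.151 and 0.110), and for HSPA5 0.29 (adjusted p = 0.376). ATF6 passed with the robust prior (adjusted p = 0.0410) and with the filter (0.0294), and XBP1 with the filter (0.0499). CEBPG (-0.36) and SLC7A11 (-0.40) also passed with the filter (adjusted p = 0.0475 and 0.0444) and not in the main fit. The call of ERN1 was lost without siNEG EtOH 24 h replicate 1 or 2, siNEG TAM 24 h replicate 1 or 3, siSTAT3 EtOH 24 h replicate 1 or 3 or siSTAT3 TAM 24 h replicate 3, with adjusted p of 0.0651 to 0.204, and those of the other 3 genes held in every case. ERN1 also did not pass in a fit to the 24 h arrays alone, in which the other 3 did.

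Set directly against siNEG cells, siSTAT3 cells had lower EDEM1 RNA at both times of EtOH, lower PHGDH RNA at 4 h, and lower ERN1 and SHMT2 RNA at 24 h. At 24 h of EtOH, 3 members were lower and 0 higher (1.46% of all genes lower and 1.4% higher by limma, and 8 members lower and 2 higher at an unadjusted p under 0.05): EDEM1 at -0.41 (SE 0.08, adjusted p = 0.0114), ERN1 at -0.45 (SE 0.11, adjusted p = 0.0403) and SHMT2 at -0.38 (SE 0.08, adjusted p = 0.0235). At 4 h of EtOH, 2 were lower and 0 higher (2.41% lower and 1.88% higher, and 10 members lower and 4 higher at an unadjusted p under 0.05): EDEM1 at -0.33 (SE 0.08, adjusted p = 0.0332) and PHGDH, the first enzyme of serine synthesis, at -0.59 (SE 0.15, adjusted p = 0.0421). Of genes with a mean of 100 units or more, 2.6% were lower and 2.41% higher at 24 h, and 4.16% and 3.27% at 4 h. The count of 2 at 4 h was thus near the share over such genes. With the robust prior 7 and 5 members passed at 24 h and 4 h, all lower, and in fits to the arrays of the groups compared alone 0 passed. With a replicate block 0 members passed at 4 h of EtOH. Fibroblast marker sums were 3143 to 3171 units in siSTAT3 and 5726 to 5965 in siNEG cells at 24 h of EtOH, and 2093 to 2368 and 2895 to 3510.3 units at 4 h. Immune marker sums were 677 to 710.03 and 841 to 1039.9 units at 24 h and 512 to 551 and 739 to 763 units at 4 h, with PTPRC at 56.1 units or less on every array, and luminal sums were 33352 to 35577 and 29175 to 32674 units at 24 h and 32944 to 34816 and 28339 to 30677 units at 4 h. None of these ranges overlapped that of the other siRNA at the same time. Basal sums were 45052 to 45481 units in siSTAT3 and 50879 to 53387 in siNEG cells at 24 h, and they overlapped at 4 h. Sums of the 3 endothelial markers, chiefly PECAM1, were 277 to 378 and 416 to 481 units at 24 h. At 4 h they were 253 to 321 and 362 to 453 units. The part of these markers in the results was not tested. PHGDH averaged 705 ± 109.6 units in siSTAT3 and 1054 ± 80.1 in siNEG cells at 4 h, and 904 ± 110.1 and 1337 ± 96.4 at 24 h. Each of these 5 calls was lost on leaving out some arrays, with the highest adjusted p at 0.158 for EDEM1 and 0.186 for PHGDH at 4 h, without siNEG EtOH 4 h replicate 2 and siSTAT3 EtOH 4 h replicate 3, and at 0.0634 for EDEM1, 0.187 for ERN1 and 0.112 for SHMT2 at 24 h, without siSTAT3 EtOH 24 h replicate 2, siNEG EtOH 24 h replicate 3 and siSTAT3 EtOH 24 h replicate 2.

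At 24 h of TAM, 5 of the 6 enzymes, the sensor genes ERN1 and ATF6, XBP1 and ATF4 itself were lower in siSTAT3 cells, and the transporters SLC7A5 and SLC3A2 and the sensor gene EIF2AK3 were higher. In all, 5 members were higher and 13 lower in siSTAT3 than in siNEG cells (9.72% of all genes higher and 6.77% lower). Of genes with a mean of 100 units or more 16.3% were higher and 10.8% lower. The 5 of 6 enzymes called were all lower: ASNS -0.96 (SE 0.15, adjusted p = 0.000335), PHGDH -0.90 (SE 0.17, adjusted p = 0.00143), MTHFD2 -0.73 (SE 0.11, adjusted p = 0.000270), PSAT1 -0.70 (SE 0.11, adjusted p = 0.000246) and SHMT2 -0.47 (SE 0.09, adjusted p = 0.00221), with PSPH at -0.27. ATF4 (-0.48), CEBPG (-0.44), SLC7A11 (-0.44), ERN1 (-1.09), XBP1 (-0.47), ATF6 (-0.35), EDEM1 (-0.44) and VLDLR (-1.64) were lower as well. Higher in siSTAT3 cells were SLC7A5 (1.21), SLC3A2 (1.06), PPP1R15A (0.56), ATF5 (0.44), an ATF4-related transcription factor, and EIF2AK3 (0.41). Of the 15 chaperone and ERAD genes EDEM1 alone was called, and their median was 0.00, against -0.71 for the 6 enzymes and 0.03 over all genes. Fibroblast marker sums were 2949.5 to 2957 units in siSTAT3 TAM 24 h and 6836 to 7896 in siNEG TAM 24 h cells, luminal sums 33329 to 39841 and 22078 to 24377 units, and sums of the 3 of 5 immune markers measured, chiefly CD14, 577 to 711 and 768 to 829.6 units. The 3' to 5' ratio of ACTB differed too, with 1.21 per array in siSTAT3 TAM 24 h cells against 1.31 to 1.35 in siNEG TAM 24 h cells. Endothelial sums were 336 to 339 units in siSTAT3 TAM 24 h and 197 to 253 in siNEG TAM 24 h cells. None of these ranges overlapped, and their part in these results was not tested. Of the 18 calls 10 held on leaving out any 1 array. Without siSTAT3 TAM 24 h replicate 2 the adjusted p was 0.103 for ATF4, 0.122 for ATF6, 0.0642 for CEBPG, 0.111 for ATF5 and 0.341 for EIF2AK3, and without its replicate 3 it was 0.174 for XBP1, 0.0548 for SLC7A11, 0.335 for PPP1R15A and 0.122 for ATF5. Leaving out siNEG TAM 24 h arrays also ended the calls of ATF5 (replicate 1, 0.103), EIF2AK3 (replicates 2 and 3, 0.133 and 0.0530) and PPP1R15A (each of the 3, 0.0595 to 0.0940). SLC7A5, SLC3A2 and VLDLR passed in a fit to the arrays of these 2 groups alone.

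At 4 h of TAM, 1 member was higher and 5 were lower in siSTAT3 cells (4.69% of all genes higher and 4.61% lower). PHGDH (-0.64, SE 0.15, adjusted p = 0.0152), SEL1L, the scaffold of the ERAD ligase (-0.46, SE 0.10, adjusted p = 0.0107), MTHFD2 (-0.41, SE 0.10, adjusted p = 0.0193), EDEM1 (-0.39, SE 0.08, adjusted p = 0.00669) and SHMT2 (-0.31, SE 0.08, adjusted p = 0.0321) were lower and ATF5 (0.40, SE 0.11, adjusted p = 0.0379) was higher. EDEM1 was lower in siSTAT3 cells in all 4 pairs of groups, by 0.44 and 0.41 at 24 h in TAM and EtOH and by 0.39 and 0.33 at 4 h. Its call at 4 h of TAM held on leaving out any 1 array, while those of SEL1L (0.0566 without siSTAT3 TAM 4 h replicate 2), PHGDH (0.0845 without siNEG TAM 4 h replicate 2), MTHFD2 (0.0941 without the same array), SHMT2 (0.134 without siSTAT3 TAM 4 h replicate 1) and ATF5 (0.182 without siSTAT3 TAM 4 h replicate 2) did not. In a fit to these 2 groups alone 0 members passed. In siSTAT3 and siNEG TAM 4 h cells, fibroblast marker sums were 2359 to 2560.2 and 3365 to 3455 units and immune sums 460.1 to 513 and 759 to 848 units. Luminal sums were 35304 to 40337 and 30302 to 33844 units and endothelial sums 160 to 240 and 274 to 286 units. None of these overlapped, and their part in these results was not tested. Comparisons that share a group, such as TAM with EtOH and siSTAT3 with siNEG at 24 h, share those arrays and are not independent of each other.

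Other genes of the 2 pathways were counted in lists of 54 further ER folding, export and ERAD genes and 52 further ATF4 and amino acid genes. With 24 h of TAM in siNEG cells, 4 of the 54 ER genes were higher and 2 lower (7.41% and 3.7%, against 6.06% and 9.31% of all genes), shares near or below those over all genes, with a median of 0.02. The largest called changes were in ERO1A, the oxidase that drives disulfide formation (0.89, SE 0.09, adjusted p = 1.48e-06), HSPA13 (0.40, SE 0.10, adjusted p = 0.0102), ERLEC1, an ERAD lectin (0.30, SE 0.08, adjusted p = 0.0153), and CANX, the lectin chaperone calnexin (-0.26, SE 0.07, adjusted p = 0.0318). Of the 52 ATF4 genes 8 were higher and 6 lower (15.4% and 11.5%), with a median of 0.03. Of genes with a mean of 100 units or more 9.69% were higher and 15.8% lower. ATF3, a stress-induced transcription factor, rose by 2.80 (SE 0.11, adjusted p = 4.46e-11), NIBAN1 by 1.79 (SE 0.23, adjusted p = 3.14e-05) and VEGFA, the angiogenic growth factor, by 1.54 (SE 0.07, adjusted p = 1.42e-10), while CTH, which makes cysteine from cystathionine, fell by 0.98 (adjusted p = 2.41e-06). After 4 h of TAM in siNEG cells 4 genes of the ATF4 list were higher and 1 lower (7.69% and 1.92%, against 1.67% and 1.58% of all genes).

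The effect of TAM at 24 h differed between siSTAT3 and siNEG cells for 3 of the 54 ER genes, 2 with a higher and 1 with a lower effect in siSTAT3 cells (3.7% and 1.85%, against 3.42% and 2.49% of all genes), shares near those over all genes: KDELR3, a receptor that returns chaperones to the ER, at 0.60 (SE 0.14, adjusted p = 0.0199), ERO1A at -0.57 (SE 0.13, adjusted p = 0.0170) and TRAM1, a protein of the translocation channel, at 0.37 (SE 0.09, adjusted p = 0.0187). In the ATF4 list it differed for 4 of 52, 2 in each direction (3.85% each): ATF3 at -1.98 (SE 0.17, adjusted p = 2.03e-06), VEGFA at -1.24 (SE 0.10, adjusted p = 1.60e-06), GDF15, a stress-induced cytokine, at 0.74 (SE 0.19, adjusted p = 0.0365), and CTH at 0.72 (SE 0.15, adjusted p = 0.00861). CTH, GDF15 and TRAM1, like SLC7A5 and SLC3A2, were lower with TAM in siNEG cells and had an effect that was higher in siSTAT3 cells. For ATF3, VEGFA and ERO1A, as for VLDLR and ERN1, the signs were opposite. KDELR3 was not called with TAM in siNEG cells. The difference between siRNAs subtracts the effect in siNEG cells, so these signs are not independent. In EtOH at 24 h against 4 h, 5 of the 54 ER genes were lower and 1 higher in siSTAT3 cells (9.26% and 1.85%, against 5.28% and 8.14% of all genes). In siNEG cells 6 were lower and 3 higher (11.1% and 5.56%, against 5.52% and 6.82%). Of genes with a mean of 100 units or more, 9.33% were lower and 13.7% higher in siSTAT3 cells. In siNEG cells these shares were 9.56% and 11.9%, so the list's shares lower were near those of such genes. The medians of the 54 ER genes were 0.00 and -0.05, against -0.30 and -0.34 for the 15 chaperone and ERAD members.

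Several members were also read by other probe sets assigned to them alone. A further probe set of HSPA5 was also lower at 24 h than at 4 h of EtOH, with -1.49, SE 0.12, adjusted p = 7.02e-07 in siSTAT3 and -1.74, SE 0.12, adjusted p = 2.37e-07 in siNEG cells. Both further probe sets of DNAJB9 fell too, by 0.80 and 1.20 in siSTAT3 and 1.29 and 1.30 in siNEG cells. With 24 h of TAM in siNEG cells 2 further probe sets of ATF6 were higher (0.45, SE 0.11, adjusted p = 0.00988 and 0.51, SE 0.14, adjusted p = 0.0253), as was that of MTHFD2 (0.68, SE 0.15, adjusted p = 0.00484), which also passed for the difference between siRNAs (-0.84, SE 0.22, adjusted p = 0.0425). ERN1's 2 further probe sets did not pass with TAM (-0.05, SE 0.15, adjusted p = 0.913 and -0.47, SE 0.34, adjusted p = 0.482), and 1 of them was higher at 24 h than at 4 h of EtOH in both siSTAT3 (0.81, SE 0.15, adjusted p = 0.00163) and siNEG cells (0.77, SE 0.15, adjusted p = 0.00294), where the main one did not pass. PDIA6 divided: a further probe set fell with TAM (-0.37, SE 0.06, adjusted p = 0.000517) while the main one was at 0.13 (SE 0.09, adjusted p = 0.425) and the other 2 at 0.02 and -0.03, so its call depended on the probe set. SESN2, a leucine sensor of the mTORC1 pathway, did not pass with TAM by its main probe set but rose by another (0.72, SE 0.13, adjusted p = 0.00129). In the same comparison a further probe set of PPP1R15A rose (0.77, SE 0.24, adjusted p = 0.0489) and a further one of PSPH fell (-0.39, SE 0.10, adjusted p = 0.0161), where neither main probe set passed. That of PSPH was also lower after 4 h of TAM in siNEG cells (-0.41, SE 0.10, adjusted p = 0.0363). In 1 or more of the other comparisons, a further probe set passed where the main one did not for PDIA6, PSAT1, DNAJC3, PPP1R15A, EIF2AK3, SESN2, PSPH, CEBPG, MTHFD2 and ERN1.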

How the data were processed

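RNA of 23 cultures was measured on Affymetrix U133 Plus 2.0 arrays from 100 ng RNA. The authors deposited linear probe set intensities, background corrected and scaled with MAS5 (version not given in the sources used here), and the 2% trimmed mean was 500 units on every array. Intensities, on a scale with no unit of molecules, were taken as log2 with nothing added and fitted with limma 3.58.1 in R 4.3.3 with 1 mean per group (15 residual and 1.27 prior degrees of freedom), and p-values were adjusted by Benjamini-Hochberg over 54675 probe sets. Of these, 41097 had 1 gene symbol in the platform annotation, 1801 several and 11777 none, and 0 columns were left unmapped. The study's methods state 3 biological replicates, and p-values measure the spread between these samples. The number of arrays limits the precision. Members and lists were chosen with earlier results of these data known. Signals of every array were given for members called at 24 h of TAM in siNEG cells or in a difference of TAM effects between siRNAs, and of each further list the 4 genes with the largest called effects were named. On simulated data the fit called 73 of 100 probe sets changed by 1 on the log2 scale, and 40 of 100 changed by 0.5, for TAM at 24 h in siNEG cells. For the difference between siRNAs at 24 h it called 40 and 7 of 100. In this simulation only the changed probe sets differed between groups, in siNEG TAM 24 h alone, with independent normal noise. Fewer probe sets were changed than were called in the data, and the adjustment of p depends on that number. The counts therefore do not measure the power of these comparisons. Alternatives were a replicate block, quantile normalization, a filter that kept probe sets with a mean of 100 units or more in 1 or more groups, 16 units added before log2, fits to the groups compared alone, an intensity-dependent robust prior, the study's limits (p under 1e-04 and an absolute log2 difference over 0.5), any probe set of a gene, and leaving out each array. Replicate numbers were not used to pair samples, since the study's methods name no replicate block. The correlations of deviations given below do not decide whether same-numbered arrays belong together, with 14 of 23 arrays nearest to their own number.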

Additional observations from a re-analysis of the deposited data

Results flagged for a closer look

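The effect of TAM at 24 h differed between siSTAT3 and siNEG cells, by the test of the difference in limma, for 4 members. The differences were 1.16 for SLC7A5 (SE 0.12, adjusted p = 1.24e-05), 0.86 for SLC3A2 (SE 0.12, adjusted p = 0.000214), -1.82 for VLDLR (SE 0.25, adjusted p = 0.000212) and -0.64 for ERN1 (SE 0.16, adjusted p = 0.0314). The effect of TAM in siNEG cells differed between 24 h and 4 h, by the same kind of test, for 4 members. The differences, 24 h minus 4 h, were -1.05 for SLC7A5 (SE 0.11, adjusted p = 2.34e-05), -0.93 for SLC3A2 (SE 0.11, adjusted p = 6.58e-05), 2.55 for VLDLR (SE 0.23, adjusted p = 3.81e-06) and 0.65 for ATF6 (SE 0.11, adjusted p = 0.00206). Both tests use the siNEG 24 h arrays and are not independent.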

How the results depend on the processing

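No call of a member changed sign, and the cause of each change below was not tested. The difference between sets in siSTAT3 EtOH 4 h, at 0.03 ± 0.05, did change sign, as a median over genes and without siNEG EtOH 4 h replicate 3. All 79 calls of members remained with quantile normalization and with 16 units added, 78 with the robust prior (VLDLR with time in siSTAT3 cells was lost, adjusted p = 0.0507), and 24 in fits to the groups compared alone. The filter kept probe sets with a mean of 100 units or more in 1 or more groups, which VLDLR and CHAC1 reached in siNEG TAM 24 h cells alone, so calls of VLDLR under it support nothing; all calls of the other members remained with it. With the filter, members called numbered 1 for TAM 4 h in siNEG, 7 for TAM 24 h in siSTAT3, 10 for the difference of TAM effects at 24 h, and, for siSTAT3 against siNEG, 6 in EtOH 4 h, 8 in EtOH 24 h and 14 in TAM 4 h. With the robust prior the same counts were 1, 7, 7, 5, 7 and 11. With groups compared alone they were 4 for TAM 24 h in siNEG, 0 for TAM 24 h in siSTAT3, 0 for siSTAT3 against siNEG in EtOH 4 h, EtOH 24 h and TAM 4 h, 3 in TAM 24 h, and 7 and 3 for time in siSTAT3 and siNEG. With the study's limits they were 7 for TAM 24 h in siNEG, 1 in siSTAT3, 0 for siSTAT3 against siNEG in EtOH 4 h, EtOH 24 h and TAM 4 h, 8 in TAM 24 h, and 6 and 7 for time in siSTAT3 and siNEG. Any probe set gave 1 for TAM 4 h in siNEG. Same-numbered arrays had a median correlation of deviations of 0.0363, and other pairs -0.0244; 16 of 77 same-numbered pairs were over 0.1, and 14 of 23 arrays were nearest to their own number. The replicate block gave 0 for siSTAT3 against siNEG in EtOH 4 h (EDEM1 and PHGDH did not pass), and 11 for TAM 24 h in siNEG, 3 in siSTAT3, 6 for the difference at 24 h (ASNS and PSAT1 passed as well, adjusted p = 0.0197 and 0.0242) and 18 for siSTAT3 against siNEG in TAM 24 h. The difference between chaperone and amino acid sets was -0.21 in siSTAT3 TAM 24 h, -0.55 in siSTAT3 EtOH 24 h and 0.0349 in siNEG TAM 4 h as a mean over all probe sets, and -0.67 in siNEG TAM 24 h and -0.0265 in siSTAT3 EtOH 4 h as a median over genes.

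Leaving out 1 array, members called ranged from 9 to 12 for TAM 24 h in siNEG, 0 to 5 in siSTAT3, 3 to 6 for the difference at 24 h, 0 to 0 at TAM 4 h in either siRNA and for the difference at 4 h, and, for siSTAT3 against siNEG, 0 to 2 in EtOH 4 h, 0 to 4 in EtOH 24 h, 2 to 7 in TAM 4 h and 14 to 18 in TAM 24 h. They ranged from 10 to 17 and from 9 to 12 for time in siSTAT3 and siNEG, and from 4 to 5 for TAM 24 h minus 4 h. The difference between sets ranged from -0.11 to -0.04 in siSTAT3 TAM 24 h, -0.50 to -0.42 in siSTAT3 EtOH 24 h, -0.37 to -0.29 in siNEG TAM 24 h, -0.55 to -0.45 in siNEG EtOH 24 h, 0.06 to 0.13 in siSTAT3 TAM 4 h, -0.01 to 0.06 in siSTAT3 EtOH 4 h and 0.0607 to 0.126 in siNEG TAM 4 h. Signals under 100 units limit CHAC1 and VLDLR.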
